A study of Mus musculus with 2 samples.

Results

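The genes that load peptides onto major histocompatibility complex (MHC) class II molecules and display them to CD4 T cells were followed through the cells of the mouse ischaemic brain. The members were the feature rows with the symbols H2-Aa, H2-Ab1, H2-Eb1, Cd74, H2-DMa, H2-DMb1, Ciita, Cd80 and Cd86, and 9 of 9 were found among 31253 features. A further 56 genes of the same and neighbouring pathways were read beside them.

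A classical class II molecule is a pair of an alpha and a beta chain. H2-Aa and H2-Ab1 encode the chains of I-A, and H2-Eb1 encodes the beta chain of I-E. Cd74, the invariant chain, fills the peptide groove until endosomal cathepsins cut it down, and H2-DM, built from H2-DMa and H2-DMb1, then swaps the remaining fragment for antigen peptides. Ciita encodes the transactivator that drives the chain, Cd74 and H2-DM genes, and Cd80 and Cd86 encode the ligands of CD28 on T cells. Dendritic cells hold the set constitutively, whereas microglia and macrophages are known to gain it in inflammation.

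The study dissected the infarct on day 3 of tMCAO (transient occlusion of the middle cerebral artery), in which a large brain artery is blocked and then reopened. Tissue labelled flox, which the series' design text calls WT, and tissue from a conditional knockout of Hilpda, an inhibitor of triglyceride lipase, was digested with collagenase and captured on the BD Rhapsody platform. Each genotype gave 1 library. The sources used here do not give the Cre driver, the deleted exons or how many animals stand behind a library.

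With 1 library per genotype there is no replicate check and no test, so the difference between genotypes and the difference between these libraries cannot be told apart. Every interval below is a 95% interval that covers counting error only. The flox library held 8593 barcodes with 67864602 UMIs (unique molecular identifiers, 1 per captured transcript), and the cKO library held 7382 barcodes with 70665440 UMIs. After filters, 8065 and 6984 cells remained, with medians of 6997 and 8741 UMIs. The libraries shared 56 barcodes, 49 of them among kept cells. Hilpda, counted over all cells, stood at 273 CPM (counts per 1e6 UMIs of the same cells) in the library labelled flox and 214 in the one labelled cKO. In monocyte or macrophage-like cells it was 471 and 268 CPM. It was 102 and 226 CPM among microglia-like cells and 129 and 184 CPM among dendritic cell-like cells, against the direction of the label. Since the deleted exons are unknown, a tag from the 3′ end may lie outside them. Whether this bears on the Hilpda values was not tested. Genotype names below therefore mean the library labelled flox and the library labelled cKO.

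Cell types were built from clusters made without any member, pathway gene or other H2 gene, and were named by marker genes, with "-like" added. Monocyte or macrophage-like cells numbered 3629 and 3086 (45.0% and 44.2% of kept cells), microglia-like cells 2113 and 1368, dendritic cell-like cells 283 and 257, and border-associated macrophage-like cells 185 and 188. Flt3, the receptor that dendritic cells depend on, had a UMI in 76.0% and 77.8% of the dendritic cell-like cells. In the same cells the summed level of the 12 dendritic markers (2812 and 2360 CPM) was below that of the 11 monocyte or macrophage markers (3326 and 2844 CPM), and no marker of either list was at 0. Mrc1 was found in 97.8% and 96.3% of border-associated macrophage-like cells.

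The genes of the chains and of H2-DM lie together on mouse chromosome 17, with H2-DMa at chr17:34119541-34139101, H2-DMb1 at chr17:34153072-34160230, H2-Ab1 at chr17:34257689-34269419, H2-Aa at chr17:34282744-34287823 on the minus strand and H2-Eb1 at chr17:34305867-34316674 (GRCm38). Ciita, Cd86 and Cd80 lie on chromosome 16. Class II promoters carry an X box, bound by the RFX complex, and a Y box, bound by NF-Y, on which the transactivator assembles. RefSeq windows of GRCm38.p6, from 250 bases before to 50 after a gene's start, were matched for 5 of 9 members. Of these 5, the windows of H2-Eb1, H2-DMb1 and H2-Aa, which held matches to the boxes, are shown. All 9 members share the dendritic pattern described below, with or without a match. The window of H2-Eb2, a neighbour of H2-Eb1, is shown because its expression differed from that of H2-Eb1. Each runs 5′ to 3′ on the gene's strand, and capitals mark matches to the X box, searched as G, any base, AAC, any 2 bases and ATG, and to the Y box, TGATTGG, letters chosen after the sequences were seen.

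H2-Eb1 promoter, chr17:34305617-34305916, plus strand: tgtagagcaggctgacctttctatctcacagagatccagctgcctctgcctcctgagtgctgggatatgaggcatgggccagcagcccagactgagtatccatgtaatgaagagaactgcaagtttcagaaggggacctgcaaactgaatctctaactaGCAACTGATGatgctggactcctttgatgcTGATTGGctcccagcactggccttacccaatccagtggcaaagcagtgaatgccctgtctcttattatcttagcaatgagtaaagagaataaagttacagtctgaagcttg
H2-DMb1 promoter, chr17:34152941-34153240, plus strand: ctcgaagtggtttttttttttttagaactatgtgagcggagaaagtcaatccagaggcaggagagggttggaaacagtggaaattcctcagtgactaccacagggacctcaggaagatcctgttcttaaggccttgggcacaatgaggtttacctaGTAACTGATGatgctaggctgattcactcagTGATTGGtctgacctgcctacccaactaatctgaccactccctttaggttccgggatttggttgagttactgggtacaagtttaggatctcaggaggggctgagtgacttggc
H2-Eb2 promoter, chr17:34325425-34325724, plus strand: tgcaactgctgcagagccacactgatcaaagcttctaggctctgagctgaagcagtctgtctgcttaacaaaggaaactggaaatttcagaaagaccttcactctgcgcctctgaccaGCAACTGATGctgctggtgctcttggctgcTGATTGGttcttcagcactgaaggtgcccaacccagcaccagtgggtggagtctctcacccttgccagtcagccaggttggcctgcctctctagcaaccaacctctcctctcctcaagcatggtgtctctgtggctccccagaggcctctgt
H2-Aa promoter, chr17:34287774-34288073, minus strand: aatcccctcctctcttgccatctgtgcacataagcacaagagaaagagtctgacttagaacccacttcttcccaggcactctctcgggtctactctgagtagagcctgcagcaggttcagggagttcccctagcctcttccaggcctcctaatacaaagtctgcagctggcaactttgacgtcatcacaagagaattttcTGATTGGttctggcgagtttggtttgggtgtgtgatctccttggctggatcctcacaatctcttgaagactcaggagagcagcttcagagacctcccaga

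In H2-Eb1 the Y box started 61 bases and the X box 91 bases before the gene's start, 30 bases apart. H2-DMb1 had the same order 31 bases apart and H2-Eb2 30 bases apart, while the H2-Aa window matched the Y box alone, 50 bases before the start. On either strand the Y box letters were found in 7.82% of 32851 promoter windows and the X box letters in 2.51%. An X box followed by a Y box within 50 bases on the gene's strand was found in 5 windows (0.0152%), of which 4 belonged to H2-Eb1, H2-DMb1, H2-Eb2 and H2-Ob. The windows of H2-DMa (chr17:34122582-34122881 and chr17:34125268-34125567) and Cd80 (chr16:38458683-38458982) held neither string. These windows lie downstream of the starts in the gene coordinates used here, chr17:34119541 and chr16:38455561. The sequence before those starts was not searched. These are matches of letters, not binding sites.

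All 9 members had their highest level in dendritic cell-like cells in both libraries, with Cd80 alone overlapping the next type, neutrophil-like cells. A gene was called between cell types when it had at least 30 UMIs in all, was at least 2-fold apart in CPM and its interval excluded equal levels. By that rule 9 of 9 members were higher in dendritic cell-like than in monocyte or macrophage-like cells in each library, where 12.4% (flox) and 11.8% (cKO) of all features were. Against microglia-like cells it was again 9 of 9, with backgrounds of 11.2% and 12%, and against border-associated macrophage-like cells 9 of 9, with backgrounds of 13% and 12.8%. The steps were not of equal size. Against microglia-like cells, and leaving aside Ciita with its few UMIs there, they ran from 2.28-fold and 3.27-fold for Cd86 to 685-fold and 779-fold for H2-Eb1.

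**Figure D1:**
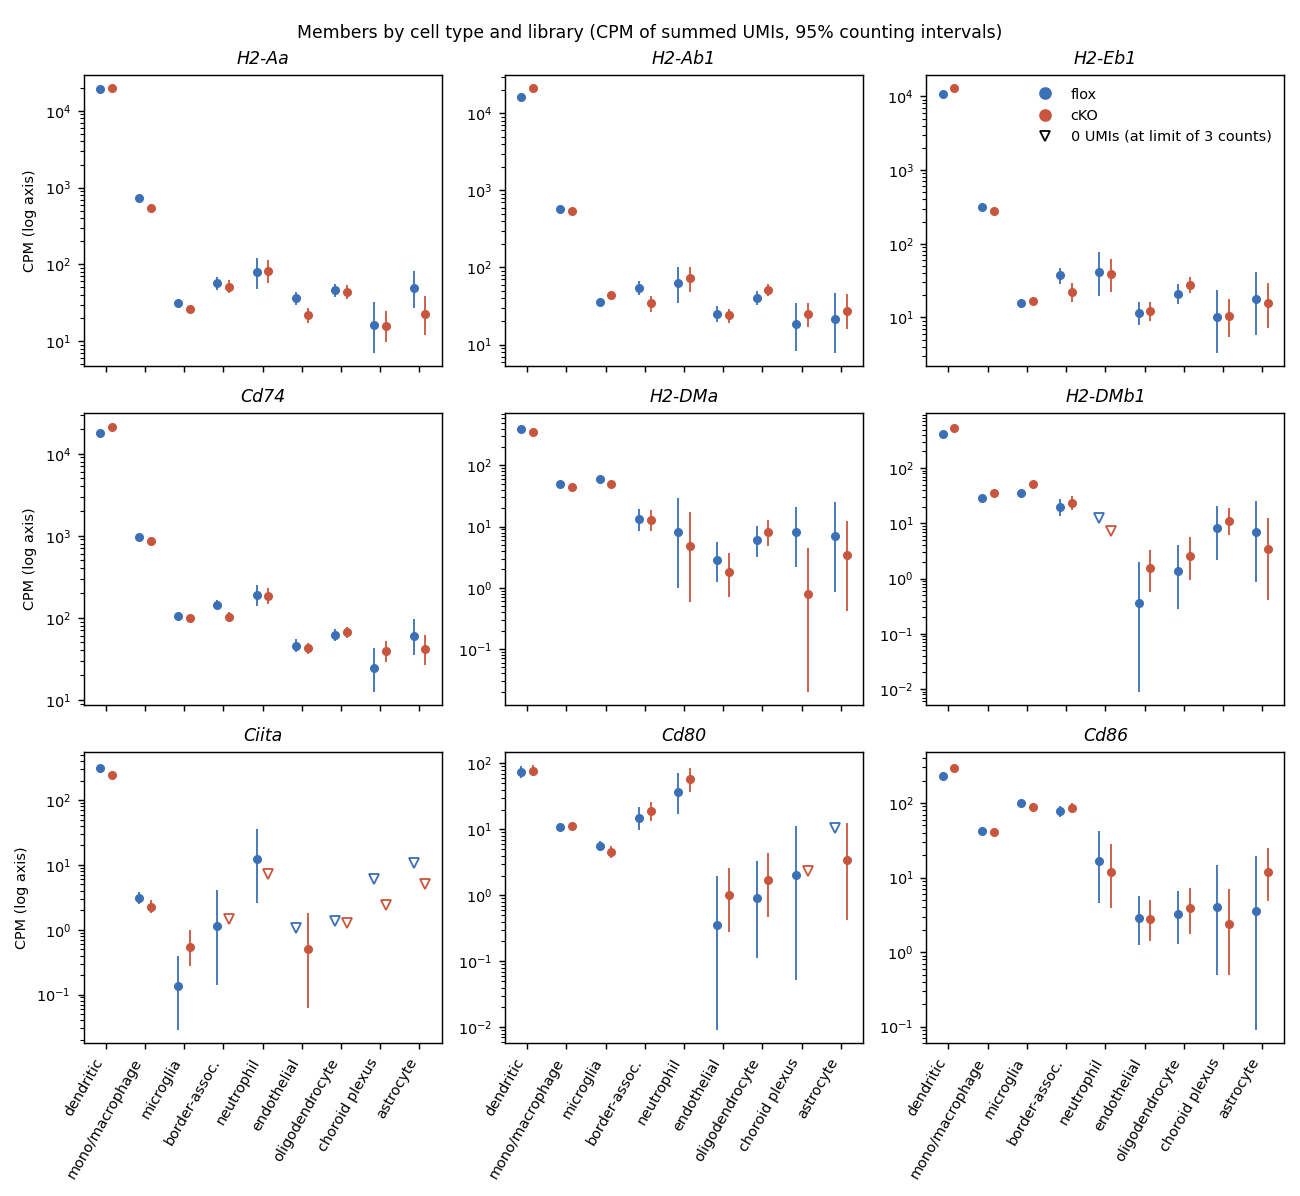
Level of each member (CPM of summed UMIs, log axis) in 9 cell types, flox library in blue and cKO library in red, with 95% counting intervals. Dendritic cell-like cells are highest in every panel, the H2 chains and Cd74 drop to near the level of oligodendrocytes and astrocytes in microglia, and Cd86 and the H2-DM genes do not.

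H2-Aa, the alpha chain of I-A, stood at 19469 CPM in the flox and 19796 CPM in the cKO library in dendritic cell-like cells. In monocyte or macrophage-like cells it stood at 739 and 551 CPM, a 26.3-fold and 35.9-fold step. H2-Ab1, the beta chain of I-A, had 16537 and 21209 CPM in dendritic cell-like and 572 and 545 CPM in monocyte or macrophage-like cells. In dendritic cell-like cells H2-Ab1 was higher in the cKO library, while the interval of the H2-Aa ratio included equal levels. In monocyte or macrophage-like cells both chains of I-A were lower in the cKO library, by amounts given further on. H2-Eb1 had 10782 and 12868 CPM in dendritic cell-like cells and 316 and 282 CPM in monocyte or macrophage-like cells, 34.1-fold and 45.6-fold apart. Summed, the chains reached 46787 CPM (46412 to 47166) and 53874 CPM (53479 to 54271) in dendritic cell-like cells. These cells were 3.51% and 3.68% of kept cells and held 52.4% and 59.98% of all chain UMIs. The monocyte or macrophage-like cells held 44.5% and 37.2%.

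In microglia-like cells the chain sum was 82.1 CPM in the flox and 86.0 CPM in the cKO library. Oligodendrocyte-like cells, taken as a reference that should lack class II, had 108 (94.4 to 122) and 123 (109 to 138) CPM, so the microglial level was 0.762-fold and 0.699-fold theirs. Endothelial cell-like cells lay lower than microglia, at 72.6 and 57.8 CPM, so the microglial level lay within the range of types outside the immune system. Where the oligodendrocyte UMIs came from was not tested, and they were uneven, with up to 10 and 9 in 1 thinned cell. Shares of cells were also near or below the oligodendrocyte share once depth was set equal. Chain UMIs were found in 38.6% and 40.0% of microglia-like cells (median depths 9166 and 14681.5 UMIs) and in 25.8% and 28.2% of oligodendrocyte-like cells (4510 and 4832 UMIs). With each cell thinned to 1000 UMIs, the shares were 7.48% and 5.49% in microglia-like against 8.57% and 9.83% in oligodendrocyte-like cells. In border-associated macrophage-like cells the chain sum was 148 and 108 CPM, 1.37-fold and 0.875-fold the oligodendrocyte level. Among the other named types with at least 50 cells, it ran from 44.7 CPM in choroid plexus to 382 CPM in mural cells in the flox library, and from 50.8 to 239 CPM in the same types in the cKO library. Below the monocyte or macrophage-like cells, most neighbours in this order had overlapping intervals.

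Cd74 followed the chains with a smaller step. It stood at 18024 and 21246 CPM in dendritic cell-like, 957 and 855 CPM in monocyte or macrophage-like, 106 and 98.8 CPM in microglia-like and 144 and 101.4 CPM in border-associated macrophage-like cells. Its gene lies on chromosome 18. Oligodendrocyte-like cells had 61.9 and 66.5 CPM, and microglia-like cells had 1.72-fold and 1.49-fold that level. The proportion of Cd74 to chains set the types apart as well. Per 100 chain UMIs there were 38.5 and 39.4 Cd74 UMIs in dendritic cell-like cells, 58.8 and 62.0 in monocyte or macrophage-like cells, and 57.4 and 54.0 in oligodendrocyte-like cells. Microglia-like cells had 129 (122 to 138) and 115 (108 to 123), so their Cd74 UMIs were not in the ratio to the chains that oligodendrocytes showed. Border-associated macrophage-like cells had 97.7 (81.8 to 117) and 94.2 (77.6 to 114). Neutrophil-like cells, on few UMIs, had 105 (67.6 to 162) and 96.3 (69.5 to 133), so a high ratio was not particular to microglia.

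The H2-DM genes were spread more evenly over the myeloid cells. H2-DMa, the alpha chain of the exchange factor, stood at 398 and 359 CPM in dendritic cell-like cells, 60.7 and 49.1 CPM among microglia-like and 50.1 and 44.6 CPM among monocyte or macrophage-like cells. H2-DMb1, its beta chain, stood at 414 and 528, 35.9 and 51.0, and 29.4 and 36.1 CPM in the same types. Microglia-like cells were thus second for both, though for H2-DMa in the cKO library their interval overlapped that of the monocytes and macrophages. Both were above the oligodendrocyte level in microglia-like cells, H2-DMa 10.2-fold and 6.03-fold and H2-DMb1 26.1-fold and 19.8-fold over oligodendrocyte-like cells, where H2-DMb1 had 3 and 6 UMIs in all. Microglia-like cells held 38.3% and 33.0% of all H2-DMa UMIs, against 1.60% and 1.46% of chain UMIs. Over all cells H2-DMa stood at 54.1 and 44.2 CPM, so its microglial level was near that of all cells together. H2-DMb1 and its near-identical neighbour H2-DMb2 can share reads, and the sources used here do not say how such reads were assigned. H2-DMb2 made up 43.5% and 34.2% of the UMIs of the pair in dendritic cell-like cells, 10.7% and 10.5% among monocyte or macrophage-like cells and 12.03% and 6.97% among microglia-like cells.

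Ciita was close to a dendritic gene. Of 513 and 412 Ciita UMIs in the flox and cKO libraries, 77.8% and 78.4% lay in dendritic cell-like cells, at 315 and 244 CPM. Monocyte or macrophage-like cells had 96 and 73 UMIs (3.11 and 2.28 CPM), a 101.3-fold and 107-fold step down. Microglia-like cells had 3 and 11 UMIs, border-associated macrophage-like cells 2 and 0 UMIs (3 counts would be 1.45 CPM in the latter), and oligodendrocyte-like cells 0 and 0. Ciita was found in 61.1% and 56.4% of dendritic cell-like cells and in 2.12% and 1.52% of monocyte or macrophage-like cells.

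The CD28 ligands differed from the chains and from each other. Cd80 stood at 74.9 and 77.9 CPM in dendritic cell-like, 14.9 and 18.8 CPM in border-associated macrophage-like, 11.1 and 11.3 CPM in monocyte or macrophage-like and 5.59 and 4.57 CPM in microglia-like cells. Neutrophil-like cells had 37.2 and 57.7 CPM of Cd80 from 9 and 24 UMIs. Cd86 stood at 229 and 292 CPM in dendritic cell-like, 100.2 and 89.3 CPM in microglia-like, 77.3 and 86.5 CPM in border-associated macrophage-like and 42.4 and 41.3 CPM in monocyte or macrophage-like cells. Microglia-like cells were thus second, with an interval that overlapped the border-associated macrophages in the cKO library. Cd86 there exceeded the oligodendrocyte level 31.2-fold and 23.2-fold. Microglia-like cells held 54.7% and 47.6% of all Cd86 UMIs, and over all cells Cd86 stood at 62.5 and 55.6 CPM. In all, 4 of the 8 members with enough UMIs were called higher in microglia-like than in oligodendrocyte-like cells (H2-DMa, H2-DMb1, Cd80 and Cd86), against 18.6% and 18.7% of all features.

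Spread over cells differed as much as level. With each cell thinned to 1000 UMIs, the median dendritic cell-like cell held 50 chain UMIs in the flox and 58 in the cKO library, with 10th and 90th percentiles of 12 and 71 and of 10 and 83.4. Chain UMIs were thus near-universal in that type, found in 97.4% and 97.2% of thinned cells. The median monocyte or macrophage-like cell held 0, and the tenth of cells with the most held 84.5% and 87.4% of the type's chain UMIs. At least 10 chain UMIs were found in 258 (7.18%) and 189 (6.20%) of these cells, and the highest cell had 92 and 69. In microglia-like cells only 1 and 3 cells reached 10, and each of those also carried a rarer dendritic marker. In border-associated macrophage-like cells 2 and 2 cells did, none with a rarer dendritic marker. Rarer means found in under 10% of kept cells, and commoner dendritic markers were not counted here.

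**Figure D2:**
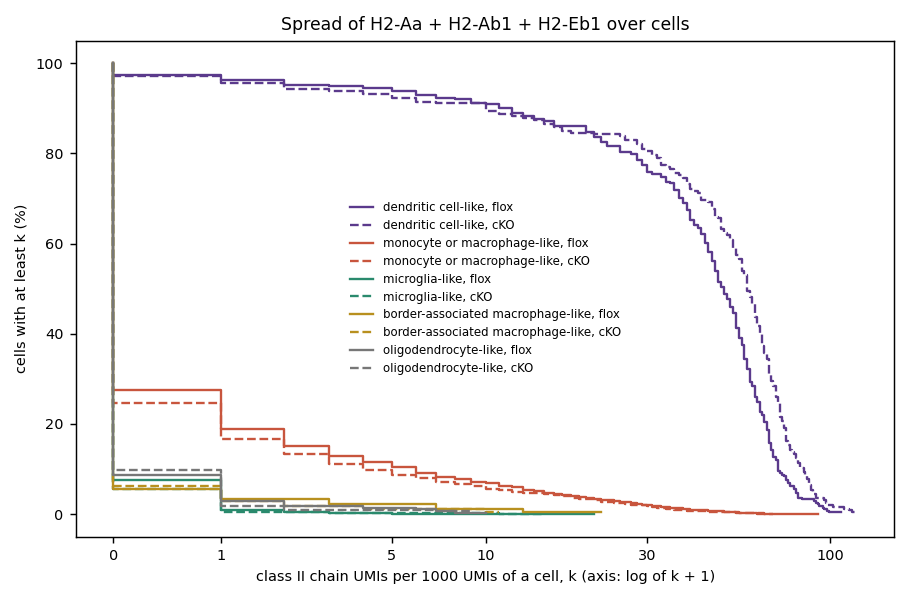
Percent of cells (y axis) with at least k chain UMIs per 1000 UMIs of the cell (x axis, log of k + 1) for 5 types, flox solid and cKO dashed. The dendritic cell-like curves stay above 91% up to 10 UMIs, the monocyte or macrophage-like curves start at 27.5% and 24.8% and reach far to the right, and microglia lie with oligodendrocytes near 0.

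Dendritic markers were more frequent among the high monocyte or macrophage-like cells. A UMI of a rarer dendritic marker (1 found in under 10% of kept cells) was present in 21.7% and 14.3% of those with at least 10 chain UMIs, in 5.61% and 4.602% of those with 1 to 9 and in 3.19% and 3.80% of those with 0. Flt3 itself was present in 15.1% and 11.1% of the high cells. Their part in the result was not tested. Over the cells of most myeloid types the chains and Cd74 varied together. Pearson's r between pairs of these 4 genes ran from 0.78 to 0.84 in 274 dendritic cell-like cells and from 0.76 to 0.85 in 3593 monocyte or macrophage-like cells of the flox library. In the cKO library the ranges were 0.85 to 0.89 in 247 and 0.755 to 0.86 in 3046 cells. In microglia-like cells r ran from 0.12 to 0.27 in 2100 flox and from 0.12 to 0.396 in 1365 cKO cells. In border-associated macrophage-like cells it ran from 0.73 to 0.91 in 178 flox and from 0.28 to 0.75 in 177 cKO cells. Of those thinned cells 168 and 166 held 0 chain UMIs, so these values rest on few cells. The correlations describe cells of 1 library thinned to equal depth and carry no test.

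Within the monocyte or macrophage-like cells, levels ran in an order set by cluster. The cluster led by Plac8, Ccr2 and Ifitm6, genes of newly arrived monocytes, had the highest chain sum, 7841 CPM in the flox and 5575 CPM in the cKO library. The cluster led by Ccr2, Clec4e and Il1b had 2704 and 2599 CPM, and the cluster led by Rsad2 and Slfn4, both interferon-induced, had 2515 and 2966 CPM. The clusters led by Gpnmb and Fabp4, genes of lipid-laden macrophages, and by Mgst1 were lowest, at 430 and 310 CPM and at 769 and 429 CPM. The Gpnmb and Fabp4 cluster held 36.1% and 41.2% of the type's cells and 12.3% and 11.9% of its chain UMIs. Between the Plac8-led and the Gpnmb and Fabp4-led clusters, 9 of 9 members were called higher in each library, against 10.5% and 9.37% of all features. H2-Eb1 was 22.6-fold and 19.5-fold higher, Cd74 15.9-fold and 16.0-fold, Cd80 7.16-fold and 9.38-fold, Cd86 5.15-fold and 5.42-fold, and H2-DMa 4.72-fold and 3.13-fold. Ciita had 33 and 37 UMIs in 223 and 238 cells of the first against 4 and 1 UMIs in 1309 and 1271 cells of the second.

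**Figure D3:**
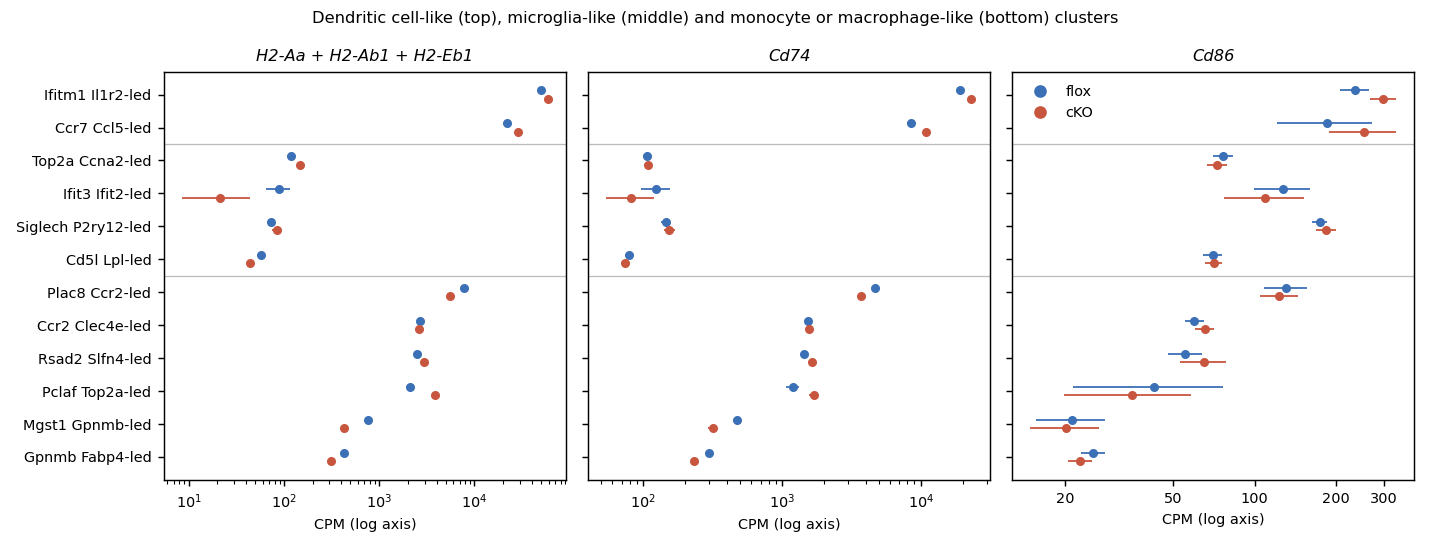
CPM (log axis) of the chain sum, Cd74 and Cd86 in the clusters of the dendritic cell-like (top), microglia-like (middle) and monocyte or macrophage-like cells (bottom), flox in blue and cKO in red, with 95% counting intervals. The Plac8-led cluster lies highest among the monocytes and macrophages in all panels, and among microglia the Siglech-led cluster lies highest for Cd86.

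Microglial clusters differed in Cd86 and in chains, in different orders. In the cluster led by Siglech and P2ry12, genes of resting microglia, Cd86 stood at 174 and 184 CPM, and in the cluster led by Cd5l and Lpl at 70.3 and 70.6 CPM. The cycling cluster led by Top2a had 76.7 and 72.8 CPM of Cd86. Chain sums in these clusters were 73.8 and 85.4, 56.9 and 43.9, and 118 and 147 CPM, highest in the cycling cluster, beside 108 and 123 CPM in oligodendrocyte-like cells. The small cluster led by Ifit3 held 50 and 7 chain UMIs in 63 and 27 cells.

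Dendritic cell-like cells fell into 2 clusters. The larger, led by Ifitm1, Il1r2 and Flt3, had a chain sum of 49894 and 58429 CPM in 243 and 214 cells. The smaller, led by Ccr7, Ccl5 and Cacnb3, genes of migratory dendritic cells, had 21739 and 28481 CPM in 40 and 43 cells. In the flox library 6 of 9 members were called lower in the Ccr7-led cluster and 0 higher (H2-Ab1, H2-Eb1, Cd74, H2-DMa, H2-DMb1 and Ciita, with 12.1% of all features lower and 9.78% higher). In the cKO library 4 were called lower and 0 higher (H2-Ab1, Cd74, H2-DMa and H2-DMb1, with backgrounds of 12.1% and 9.42%). The genes of peptide exchange had few UMIs there: H2-DMa was 0.163-fold and 0.182-fold, from 10 and 15 UMIs, and H2-DMb1 0.0463-fold and 0.207-fold, from 3 and 25 UMIs. Ciita had 3 UMIs (21.4 CPM) and 28 UMIs (139 CPM) there, beside 351 and 263 CPM in the larger cluster. Cd80 was 1.76-fold (0.975 to 3.00) and 1.51-fold (0.8997 to 2.45) and Cd86 0.794-fold (0.509 to 1.19) and 0.849-fold (0.619 to 1.14), with intervals that include equal levels.

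H2-Eb2, a class II beta chain gene outside the member list, went the other way. It stood at 293 and 487 CPM in the Ccr7-led cluster against 9.75 and 5.35 CPM in the larger one, a 30.1-fold and 91.1-fold difference. Its promoter window, printed above, held the same pair of boxes at the same spacing as that of H2-Eb1. Cd274, which encodes the T cell inhibitory ligand PD-L1, was 6.69-fold and 6.17-fold higher in the Ccr7-led cluster, and Cd40, the receptor for T cell help, 2.69-fold and 3.56-fold. H2-Ob, the beta chain of the H2-DM inhibitor H2-O, had 1 and 5 UMIs there against 185 and 135 in the larger cluster.

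Sorting the dendritic cell-like cells by single markers gave a similar picture. The 40 and 44 cells with Ccr7 and a further migratory marker had a chain sum of 23362 and 29948 CPM. The 28 and 21 cells with Xcr1 or Clec9a, markers of cross-presenting dendritic cells, had 39752 and 53256 CPM, and the 82 and 79 cells with Cd209a, a marker of monocyte-like dendritic cells, 48306 and 58561 CPM. The largest set, 127 and 108 cells with none of these markers, had 53439.8 and 60068 CPM, above the 3 sets just named. Cd86 was lowest in flox Xcr1 or Clec9a cells at 100.1 CPM (20 UMIs) and highest in cKO Cd209a cells at 343 CPM (134 UMIs).

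Between the libraries no member passed the size rule in any of the 4 myeloid types. Of the 9, 9, 8 and 8 members with at least 30 UMIs in dendritic cell-like, monocyte or macrophage-like, microglia-like and border-associated macrophage-like cells, 0 were called in either direction, where 5.52%, 6.06%, 6.42% and 6.28% of all features were. The members' median log2 ratio of cKO over flox was 0.24, -0.16, -0.14 and -0.08 in these types, beside -0.06, 0.01, -0.04 and -0.02 over all features. Smaller differences ran in different directions in different types. Outside the 4 myeloid types, H2-Aa was called lower in the library labelled cKO in mural cells, at -1.02 (-1.49 to -0.56) on 91 and 72 UMIs. The share of all features called in mural cells was not counted.

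**Figure D4:**
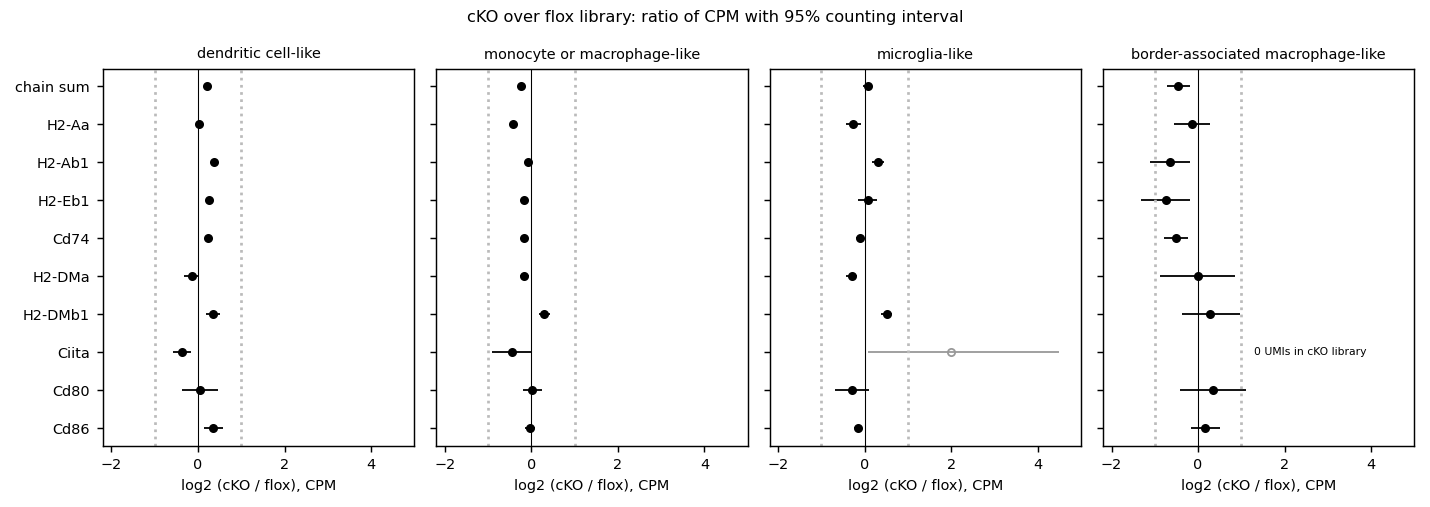
Log2 ratio of CPM, cKO over flox library, for the chain sum and each member in the 4 myeloid types, with 95% counting intervals and dotted lines at 2-fold. No point counted by the size rule lies beyond 2-fold, H2-DMb1 lies right of 0 in the first 3 panels, and Ciita in microglia (grey, 3 and 11 UMIs) is too thin to count.

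In dendritic cell-like cells the chain sum was higher in the library labelled cKO by 0.20 on the log2 scale (0.19 to 0.22). H2-Ab1 accounted for most of it, at 0.36 (0.33 to 0.38), with H2-Eb1 at 0.26 (0.22 to 0.29) and H2-Aa at 0.02 (-0.001 to 0.05). Cd74 stood at 0.24 (0.21 to 0.26). Cd86 was higher by 0.35 (0.13 to 0.58). Ciita was lower, at -0.37 (-0.58 to -0.15). In these cells the summed dendritic markers also differed, at 2812 and 2360 CPM, as did the cells' median depth, at 4298 and 4990 UMIs. Their part in the differences was not tested.

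In monocyte or macrophage-like cells the chain sum was lower in the library labelled cKO, at -0.24 (-0.26 to -0.22), mainly through H2-Aa at -0.42 (-0.45 to -0.40). H2-Ab1 stood at -0.07, H2-Eb1 at -0.16, Cd74 at -0.16 and Ciita at -0.45 (-0.91 to 0.00). The clusters did not move as 1 block. The chain sum was lower in the Plac8-led (-0.49), Mgst1-led (-0.84) and Gpnmb and Fabp4-led (-0.47) clusters, near equal in the Ccr2, Clec4e and Il1b-led one (-0.06) and higher in the Rsad2-led (0.24) and cycling (0.88, 23 and 27 cells) ones. With the cluster mix set equal the chain sum ratio was -0.13. Without the cells that held a rarer dendritic marker it was -0.14.

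In microglia-like cells the chain sum stood at 0.07 (-0.03 to 0.16), and its direction turned with the cells kept. It was 0.28 with called doublets kept, -0.32 without cells of a rarer dendritic marker and -0.47 without cells of any dendritic marker. The summed dendritic markers in these cells stood at 239 and 105 CPM. Cd86 stood at -0.17 (-0.26 to -0.07) over the type, but at 174 and 184 CPM in the Siglech-led cluster and 70.3 and 70.6 CPM in the Cd5l and Lpl-led one. The Siglech-led cluster held 939 of 2113 microglia-like cells in the flox and 403 of 1368 in the cKO library, and with the cluster mix set equal the ratio was 0.0060. In border-associated macrophage-like cells the chain sum stood at -0.45 (-0.72 to -0.19), on 258 and 223 UMIs. H2-Ab1 stood at -0.65, H2-Eb1 at -0.74 and Cd74 at -0.51. Flox and cKO levels of H2-Ab1 were 53.8 and 34.3 CPM, against 40.3 and 51.5 CPM in oligodendrocyte-like cells. For H2-Eb1 they were 37.2 and 22.2 against 21.1 and 27.9 CPM, and for Cd74 144 and 101.4 against 61.9 and 66.5 CPM. The ratio of the chain sum was 0.036 when each cell was gated by its own markers. Without cells of any dendritic marker it was -1.75 on the 94 and 104 cells left, where H2-Aa, H2-Ab1, H2-Eb1 and Cd74 passed the size rule.

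The chains of H2-DM differed in opposite directions in monocyte or macrophage-like and microglia-like cells, while in dendritic cell-like cells the H2-DMa interval included equal levels. H2-DMb1 was higher in the library labelled cKO by 0.35 (0.18 to 0.52) in dendritic cell-like, 0.30 (0.17 to 0.43) in monocyte or macrophage-like and 0.51 (0.37 to 0.64) in microglia-like cells. H2-DMa stood at -0.15 (-0.33 to 0.03), -0.17 (-0.27 to -0.06) and -0.30 (-0.42 to -0.18). Within clusters H2-DMb1 stood at 0.57 in the Gpnmb and Fabp4-led, 0.21 in the Ccr2, Clec4e and Il1b-led and 0.61 in the Cd5l and Lpl-led cluster, but at -0.40 in the Plac8-led one. H2-DMa stood at 0.04, -0.16, -0.23 and -0.56 in the same clusters, so both chains were lower in the Plac8-led one. The intervals of 0.04 and -0.16 included equal levels. Over 12 settings the microglial H2-DMa ratio ran from -0.35 to -0.084. H2-DMb2 stood at -0.22 (-0.43 to -0.02) in dendritic cell-like, 0.27 (-0.11 to 0.64) in monocyte or macrophage-like and -0.36 (-0.80 to 0.07) in microglia-like cells.

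The chains of I-A also shifted against each other, beyond counting error in some types only. The share of H2-Aa among chain UMIs was 41.6% in the flox and 36.7% in the cKO library in dendritic cell-like cells, 45.4% and 40.0% in monocyte or macrophage-like cells, 37.9% and 30.1% in microglia-like cells and 43.0% and 35.5% in oligodendrocyte-like cells. In border-associated macrophage-like cells it was 38.4% and 47.5%. The GC content of the last 500 transcript bases, which is subtracted in an alternative, was 51.8% for H2-Aa, 53.4% for H2-Ab1, 56% for Cd74, 54.6% for H2-DMa and 52.8% for H2-DMb1, beside a median of 44.4% over all genes. Subtracting the ratio of genes of like GC turned Cd74 in monocyte or macrophage-like cells from -0.16 to 0.048 and left H2-DMb1 higher in the 3 types named above.

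Among the other pathway genes, those past the size rule between libraries were all lower in the library labelled cKO, as were 4.74%, 5.29%, 5.84% and 5.03% of all features in the 4 types. Of 6 endosomal processing genes found, 1 passed in each type: Ctsd, an aspartic protease, at -1.25, -1.62, -1.57 and -1.29. Ctss, the cathepsin that trims the invariant chain, stood at 0.22 in dendritic cell-like and 0.02 in monocyte or macrophage-like cells. Of 4 other class II locus genes found, 1 passed in microglia-like cells, H2-Oa, the alpha chain of the H2-DM inhibitor, at -1.23, and it stood at -0.91 in dendritic cell-like cells with 153 and 85 UMIs. Of these 4 genes, 4, 2, 3 and 0 had at least 30 UMIs in the 4 types. H2-Eb2 stood at 0.94 in dendritic cell-like cells with 52 and 104 UMIs and did not pass.

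None of the 7 enhanceosome subunit genes passed in any type. Rfx5, a subunit of the complex at the X box, stood at 0.22 (-0.63 to 1.08) and Nfya, a subunit of that at the Y box, at -0.31 (-0.62 to -0.01) in dendritic cell-like cells. None of the 8 genes of the interferon gamma axis passed: Irf1 stood at 0.16 and Ifngr1 at 0.22 in monocyte or macrophage-like cells, and Irf8 at -0.70 in dendritic cell-like cells. None of the 3 turnover genes and 9 further ligands passed, with Marchf1, a ligase that removes surface class II, at -0.46 and Cd83, which protects it, at -0.25 in dendritic cell-like cells. Cd40 stood at 0.40 and Cd274 at 0.38 in monocyte or macrophage-like cells, and Vsir at -0.46 in microglia-like cells.

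Of 6 T cell partner genes, Cd4 passed in monocyte or macrophage-like cells (-1.18, 98 and 45 UMIs) and Lag3, an inhibitory class II receptor, in monocyte or macrophage-like (-1.58) and microglia-like cells (-1.89, 822 and 203 UMIs). Of 13 class I genes, Psmb10, an immunoproteasome subunit, passed in all 4 types (-1.07, -1.07, -1.02 and -1.32), and Tap2, a subunit of the peptide transporter, in dendritic cell-like (-1.28) and microglia-like cells (-1.28). B2m, the light chain of class I, stood at -0.14, -0.35, -0.31 and -0.21 and did not pass.

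Over 54 points of cluster and library, the genes whose log2 level most resembled the chain sum were Napsa (Pearson's r = 0.90), Tnip3 (0.89), Runx3 (0.86), Plbd1 (0.86), Nr4a3 (0.85), Flt3 (0.85), Gpr132, Cytip and Ms4a4c (0.84 each) and Htr7 (0.83). Over the cells of the monocyte or macrophage-like type, r was highest for Tmem176a (0.31 flox, 0.30 cKO), Tmem176b (0.34, 0.29), Ccr2 (0.28, 0.30) and Tgfbi (0.30, 0.28). It was lowest for Ctsb (-0.39, -0.36), Gpnmb (-0.33, -0.34), Spp1 (-0.36, -0.33) and Ctsd (-0.35, -0.31). Among the 10 highest genes in microglia-like cells, none exceeded 0.19 in either library. The points share libraries and depth, and the values are descriptions with no test.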

How the data were processed

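Single cells of infarcted brain were sequenced, with 1 flox and 1 Hilpda cKO library. The authors deposited whole-number UMI counts per gene and barcode. The submitters' processing notes name CASAVA 1.8, STARsolo, Seurat and mm10; the sources used here do not say what filtered the barcodes. Counts were used as deposited. Cells with under 500 UMIs, under 200 genes or over 25% mitochondrial UMIs were removed, and doublets were called with scrublet through scanpy 1.11.5 and left out (210 flox, 142 cKO). Cells were clustered together (2000 variable genes, 30 components, 20 neighbours, Leiden resolution 1) into 29 clusters, which were named by marker lists; 2 clusters stayed unnamed (2.90% and 2.92% of cells). UMIs were summed per type and library and divided by their total (CPM). Intervals are exact (Poisson for levels, conditional binomial for ratios, Clopper-Pearson for shares). A gene was called with at least 30 UMIs, a 2-fold difference and an interval that excludes equal levels. A count of 0 has a limit of 3 counts. TMM scaling used edgeR 4.0.16 in R 4.3.3. The procedure was tested on simulated data.

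All 9 members are named, with each other pathway gene past the size rule and otherwise those of most UMIs per list. Some cluster contrasts, other class II locus genes in them and examples were chosen after their values were seen. Members, marker lists and pathway lists were chosen with earlier results of these data known, and the thresholds for naming clusters were revised after the clusters were seen. H2-Ea, Ifi30 and 2 older March symbols of the lists were not analysed here. The values of 1 other pathway gene are not reported here.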

Additional observations from a re-analysis of the deposited data

Results flagged for a closer look

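Each difference below was not tested, since each genotype has 1 library. In some genes the ratio of the library labelled cKO over that labelled flox had an interval on one side of 0 in 1 type and on the other side in another. For H2-Ab1 the log2 ratio was 0.36 in dendritic cell-like and -0.65 in border-associated macrophage-like cells, a difference of 1.01. For H2-Eb1 it was 0.26 and -0.74 in the same types, a difference of 0.9986. For Cd74 it was 0.24 and -0.51, a difference of 0.74. For the chain sum it was 0.20 and -0.45, a difference of 0.66. In border-associated macrophage-like cells the chain UMIs lay in few cells, as given above. For Cd86 it was 0.35 in dendritic cell-like and -0.17 in microglia-like cells, a difference of 0.52. For Ciita it was 2.0005 in microglia-like cells, on 3 and 11 UMIs, and -0.37 in dendritic cell-like cells, a difference of 2.37.

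Class II signal was also present in a cluster that no comparison used. It was led by Igkc, Igha and Cd79a, genes of B cells, and stayed unnamed because markers of plasmacytoid dendritic cells scored as high. Cd74 stood there at 5839 CPM in the flox library (353 UMIs in 30 cells) and 3280.2 CPM in the cKO library (186 UMIs in 18 cells).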

How the results depend on the processing

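No paired analysis was possible because each genotype has 1 library. For the chain sum, log2 cKO over flox ran over 12 settings from 0.18 to 0.26 in dendritic cell-like (0.20 as reported), from -0.29 to -0.094 in monocyte or macrophage-like (-0.24), from -0.47 to 0.28 in microglia-like (0.07) and from -1.75 to 0.036 in border-associated macrophage-like cells (-0.45), so only the first 2 kept their direction under every setting; causes were not tested. Values that moved beyond counting error, in that order of types, were these. With called doublets kept: -0.29 and 0.28 in monocyte or macrophage-like and microglia-like cells. At Leiden resolution 0.5 the monocyte or macrophage-like value stood at -0.28 and at resolution 2 at -0.14. With each cell gated on its own: 0.18, -0.094, -0.42 and 0.036. With cells of any dendritic marker left out: -0.17, -0.47 and -1.75 in the last 3 types, and 4 members passed the size rule, all in border-associated macrophage-like cells, where 94 and 104 cells remained. With each cell of equal weight: 0.18, -0.20, -0.16 and -0.73, and 2 members passed. Under TMM scaling the dendritic cell-like value stood at 0.26. With genes of like 3′ GC subtracted: 0.24 and -0.27 in the first 2. Added after seeing the data, an equal cluster mix gave 0.24 and -0.13 in the first 2, and leaving out cells with a rarer dendritic marker gave -0.14 and -0.32 in monocyte or macrophage-like and microglia-like cells. Counting genes from 10 UMIs, or with no minimum, 1 member passed, Ciita in microglia-like cells. The share of all features called is not given for any of these alternatives, so the members that passed cannot be set against it.

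Of 419 values of single members, 336 stayed, 68 moved and 15 changed direction. In microglia-like cells H2-Aa stood at 0.065 and Cd74 at 0.061 with doublets kept, H2-Ab1 at -0.14 and Ciita at -0.82 with cells gated on their own, H2-Ab1 at -0.27 and Cd74 at 0.073 without cells of any dendritic marker, Cd74 at 0.17 with GC subtracted, Cd86 at 0.0060 with an equal cluster mix, and H2-Ab1 at -0.029 without cells of a rarer marker. In monocyte or macrophage-like cells H2-Ab1 stood at 0.026 at resolution 2, 0.085 with cells gated on their own, 0.030 with an equal cluster mix and 0.042 without cells of a rarer marker, and Cd74 at 0.048 with GC subtracted. In border-associated macrophage-like cells H2-Eb1 stood at 0.24 with cells gated on their own. H2-DMb1 was higher in the library labelled cKO under all 12 settings in dendritic cell-like (0.17 to 0.41), monocyte or macrophage-like (0.21 to 0.43) and microglia-like cells (0.48 to 0.67). Of 80 shares of cells with a UMI, 70 moved when cells were thinned to 1000 UMIs, so unthinned shares follow depth.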
